A study of Rattus norvegicus with 105 samples.

Results

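Glucocorticoid receptors and 5 of the genes they are known to regulate were examined in rat frontal cortex, on Affymetrix arrays from 3 experiments (22, 20 and 63 arrays). The gene symbols Nr3c1, Nr3c2, Fkbp5, Sgk1, Tsc22d3, Klf9, Zbtb16 and Cdkn1a were looked up in the platform's annotation, and every probe set with 1 of these symbols was taken. This gave 12 of 31042 probe sets, for 7 of the 8 genes named. Zbtb16 was not analysed here. Of the 12 probe sets, 10 passed the filter on low signal and were tested. The 2 others, 1387391_at of Cdkn1a and 1390076_at of Klf9, lay at the 19.8 and 20.2 percentiles of mean signal, below the intensity floor of 32 on 10 and 7 arrays.

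Each experiment had its own controls. In the lesion experiment, 12 arrays held RNA from rats with a ventral hippocampal lesion and 10 from sham rats. In the TTX experiment, 11 arrays held RNA from rats whose ventral hippocampus had been disrupted with tetrodotoxin, a blocker of voltage-gated sodium channels, and 9 from sham rats. The neuroleptic experiment gave antipsychotic drugs chronically. Vehicle was given in 9 arrays. Clozapine, an atypical antipsychotic, had 10 arrays at the low, 9 at the medium and 8 at the high dose, and haloperidol, a typical one, had 9 at each dose. Doses were words in the labels, and the sources used here do not state strain, sex, age, lesion method or treatment times. Each array's title carries a rat number of its own within its experiment, and nothing else in the labels describes the animals. The p-values measure how these samples vary, some of which may be technical. The 5 measured markers of cortical excitatory neurons stood at the 64.4 to 99.8 percentiles of mean signal. Measured striatal markers stood at the 35.9 to 87.2 percentiles. These ranges overlap and compare different probe sets, so they cannot check the frontal cortex label.

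Corticosterone, the main glucocorticoid of the rat, crosses cell membranes and binds the glucocorticoid receptor, encoded by Nr3c1, and with higher affinity the mineralocorticoid receptor, encoded by Nr3c2. Hormone releases the receptor from a chaperone complex, and the receptor enters the nucleus, binds DNA and raises or lowers transcription. Fkbp5 encodes a cochaperone that lowers the receptor's affinity for hormone and is itself induced by it, which closes a short feedback loop. Sgk1 (a serum- and glucocorticoid-regulated kinase), Tsc22d3 (the leucine zipper protein GILZ), Klf9 (a Krüppel-like transcription factor) and Cdkn1a (the cell cycle inhibitor p21) are genes that glucocorticoids induce in many tissues, the brain among them.

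Levels are log2 intensities after quantile normalisation within each experiment, so a difference of 1 is a doubling, and levels are not compared between probe sets or between experiments. Differences were tested with limma, with Benjamini-Hochberg adjustment over all 18625 probe sets tested in a comparison, and an adjusted p under 0.05 counted as a call. Across 14 comparisons the 10 probe sets gave 140 tests. Only 1 of the 140 was called, and 9 (6.43%) had an unadjusted p under 0.05, against 5.76% of the 260750 tests over all probe sets. The smallest adjusted p among the 139 others was 0.306. The SE of a difference ran from 0.0229 to 0.461, with a median of 0.103. The plot of the differences shows these tests for the main comparisons.

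**Figure D1:**
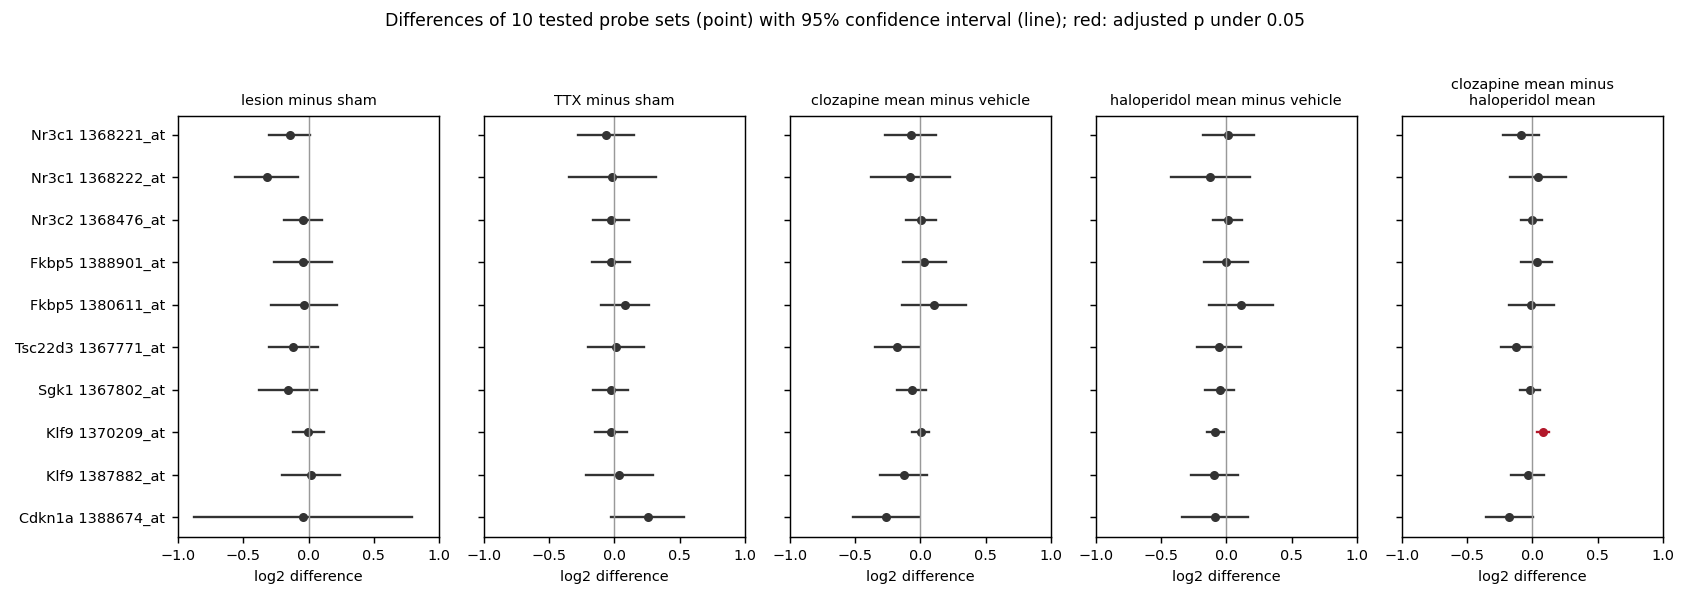
Log2 differences (points) with 95% confidence intervals (lines) of the 10 tested probe sets in the lesion, TTX and neuroleptic experiments. The interval of Klf9 1370209_at for clozapine minus haloperidol is the only one in red, for an adjusted p under 0.05, and Cdkn1a has the widest interval, in the lesion experiment.

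Klf9 and the pair Nr3c1 and Tsc22d3 carry the 2 main patterns described here, so their promoters are shown. Each sequence runs from 250 bases before to 50 bases after a gene start in RefSeq's GRCr8 assembly, 5′ to 3′ on the gene's strand. The Klf9 sequence is chr1:230126396-230126695 (plus strand), that of Nr3c1 chr18:31614170-31614469 (minus strand) and that of Tsc22d3 chrX:109066340-109066639 (minus strand); for Nr3c1 and Tsc22d3 the most upstream annotated start is given. Capitals mark 2 motifs on either strand, the GC box GGGCGG and the CACCC box, letters of the kind that Krüppel-like and Sp factors are known to bind.
Klf9: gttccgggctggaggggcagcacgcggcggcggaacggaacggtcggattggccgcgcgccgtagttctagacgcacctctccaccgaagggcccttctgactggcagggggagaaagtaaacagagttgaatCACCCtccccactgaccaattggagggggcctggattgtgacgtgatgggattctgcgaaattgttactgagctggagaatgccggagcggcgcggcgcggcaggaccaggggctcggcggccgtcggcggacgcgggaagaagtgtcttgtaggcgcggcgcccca
Nr3c1: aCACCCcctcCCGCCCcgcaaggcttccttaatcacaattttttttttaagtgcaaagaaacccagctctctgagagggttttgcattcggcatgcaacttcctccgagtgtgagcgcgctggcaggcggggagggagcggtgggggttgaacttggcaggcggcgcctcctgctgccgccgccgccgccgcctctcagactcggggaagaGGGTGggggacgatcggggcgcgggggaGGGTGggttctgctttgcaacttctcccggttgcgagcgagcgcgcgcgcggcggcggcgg
Tsc22d3: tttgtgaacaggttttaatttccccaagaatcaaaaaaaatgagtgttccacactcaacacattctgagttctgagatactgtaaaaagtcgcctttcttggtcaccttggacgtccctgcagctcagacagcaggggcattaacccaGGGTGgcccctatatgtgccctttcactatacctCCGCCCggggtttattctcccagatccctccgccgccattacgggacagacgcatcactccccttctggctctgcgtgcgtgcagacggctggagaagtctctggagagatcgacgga
The Klf9 window holds 1 CACCC box, that of Nr3c1 holds 1 GC box and 3 CACCC boxes, and that of Tsc22d3 holds 1 of each. The table held 11 promoters for 6 of the genes. A GC box was found in 7 of the 11, against 33.1% of all 33469 promoters in the table, and a CACCC box in 8 of the 11, against 54.9%. The glucocorticoid half-site AGAACA was found in 0 of the 11, against 20.7% of all promoters. The palindromic glucocorticoid response element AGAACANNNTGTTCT was found in 0 of the 11, against 0.0149%. All motifs were searched on both strands, and the palindromic element contains the half-site. No match says only that these letters are not in these windows.

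Nr3c1, the glucocorticoid receptor itself, had 2 tested probe sets. On the brighter, 1368221_at, the lowest, median and highest levels were 12.11, 12.29 and 12.68 in the 12 lesion arrays and 12.19, 12.43 and 12.78 in the 10 sham arrays. The difference was -0.14 ± 0.077 (SE; limma, unadjusted p = 0.0734, adjusted p = 0.685), and 10 of 12 lesion arrays lay below the sham mean. On the dimmer, 1368222_at, the same values were 8.93, 9.52 and 10.16 after the lesion and 9.44, 9.75 and 10.36 in sham. Lesion and sham ranges overlapped on both probe sets. The dimmer probe set differed by -0.32 ± 0.12 (unadjusted p = 0.0112, adjusted p = 0.588), in 11 of 12 lesion arrays. It was not called, and neither was any other tested probe set of the members. After the lesion limma called 0 of 10, with 1 of 10 at an unadjusted p under 0.05. Of 18625 probe sets it called 0 (0%), and 1450 (7.79%) had an unadjusted p under 0.05. Of the 10 tested probe sets, from 7 genes, 9 stood lower than sham and 1 higher, where 49.5% of all probe sets stood higher. The median difference was -0.04 beside -0.0010 over all probe sets. The sign of Cdkn1a, among the 9, rested on 1 array, without which it was at 0.33.

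The arrays of each experiment fell into runs of consecutive sample numbers, which the labels do not explain. Within the lesion runs, of 6 lesion and 5 sham arrays each, the brighter Nr3c1 probe set differed by -0.15 and -0.13 and the dimmer by -0.11 and -0.53. Across all arrays, with group means removed, the 2 probe sets were correlated at r = -0.19. Beside these values, 7 of 7 measured oligodendrocyte markers of a list of 8 stood lower after the lesion, with a median difference of -0.14 and a summed intensity of 131391 to 232917 (median 179989) in lesion arrays and 167416 to 218436 (median 181374) in sham arrays. After TTX the same 7 of 7 also stood lower than in sham, with a median difference of -0.15. Over all probe sets 49.5% stood higher after the lesion and 49.7% after TTX. With group means removed, Nr3c1 was correlated with the mean of the oligodendrocyte markers at 0.24 across all arrays. Among the cell type lists its values ran from -0.37 (endothelial and mural) to that 0.24. The part of these cell types in the Nr3c1 values was not tested. In tissue RNA, fewer cells of a type and less RNA per cell cannot be told apart. In the TTX experiment Nr3c1 was at 12.37 ± 0.21 (SD, n = 11) after TTX and 12.44 ± 0.27 (SD, n = 9) in sham on the brighter probe set, a difference of -0.06 with a 95% confidence interval of -0.28 to 0.15. The dimmer one differed by -0.02 ± 0.16. The lesion and TTX effects on Nr3c1 differed by -0.08 ± 0.13 and -0.31 ± 0.20 (limma, adjusted p = 0.949 and 0.847), so no difference between them was detectable with these arrays.

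In the neuroleptic experiment the brighter Nr3c1 probe set averaged 12.52 ± 0.26 at vehicle, then 12.49 ± 0.24, 12.43 ± 0.29 and 12.43 ± 0.26 at low, medium and high clozapine, and 12.45 ± 0.25, 12.52 ± 0.28 and 12.64 ± 0.22 at low, medium and high haloperidol (SD). The mean of the clozapine groups differed from vehicle by -0.07 ± 0.098, that of the haloperidol groups by 0.01 ± 0.098, and clozapine from haloperidol by -0.09 ± 0.069. High haloperidol was the highest and high clozapine the lowest of the 7 means, and no gap between neighbours in that order exceeded the larger of their SDs. Runs of sample numbers held 59.6% of the variance of this probe set in the neuroleptic arrays, with means of 12.26 in run 2 and 12.78 in run 4. Run 4 held 9 haloperidol and 2 clozapine arrays, and doses were spread unevenly over the runs. The part of the runs in this order was not tested. The dimmer probe set lay between 9.37 and 9.52 in all 7 groups.

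Nr3c2, the mineralocorticoid receptor, had 1 probe set. Its mean was 11.79 ± 0.18 after the lesion and 11.83 ± 0.14 in sham, and 11.64 ± 0.13 after TTX and 11.66 ± 0.16 in sham (SD). The differences were -0.04 ± 0.070 and -0.03 ± 0.068 (SE), with 95% intervals of -0.19 to 0.10 and -0.17 to 0.11. In the neuroleptic experiment the vehicle mean was 11.53 ± 0.13, the clozapine means ran from 11.52 to 11.56 and the haloperidol means from 11.53 to 11.56. Clozapine differed from vehicle by 0.01 with an interval of -0.11 to 0.12, and haloperidol by 0.01 with an interval of -0.10 to 0.12. The groups overlapped in each of these comparisons.

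**Figure D2:**
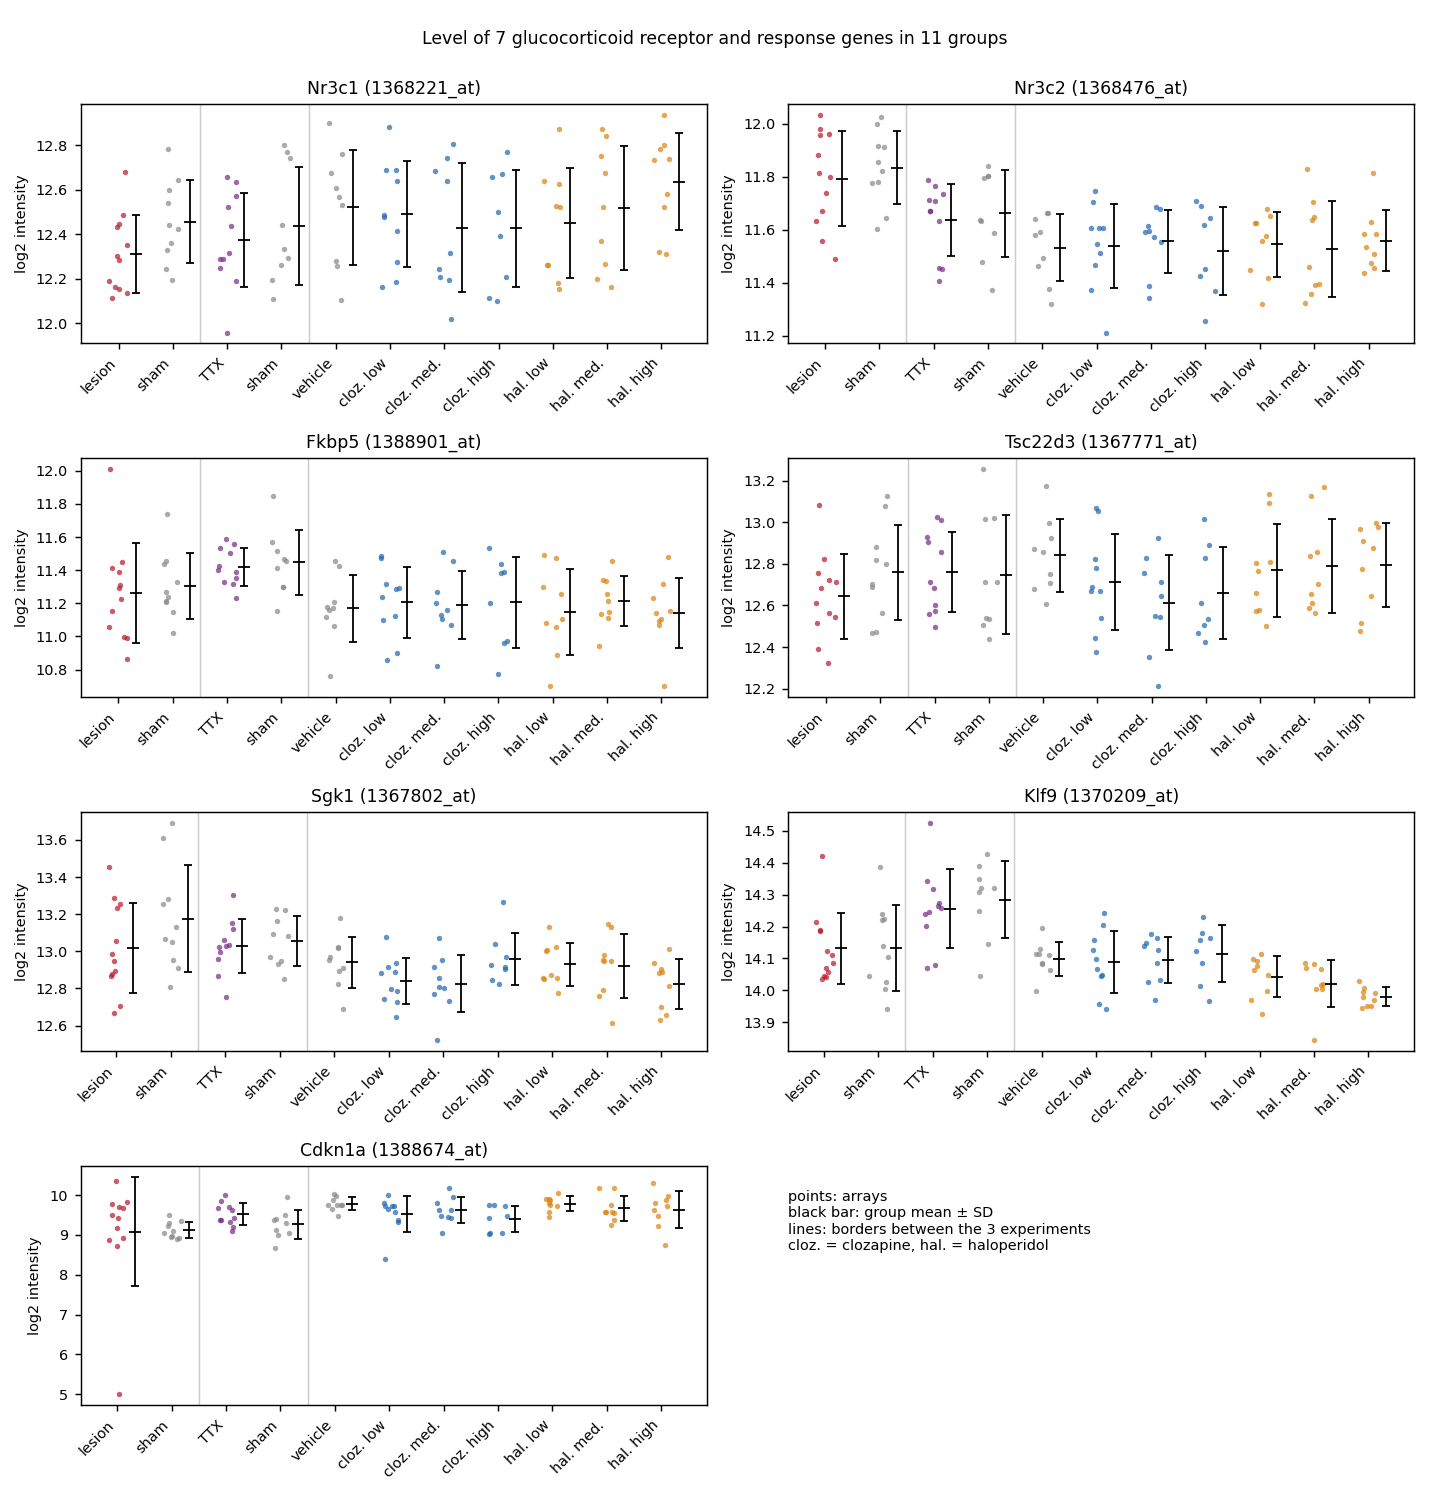
Log2 intensity of the representative probe set of 7 genes on every array (points) in 11 groups, with the group mean and SD (black bars); grey lines separate the 3 experiments. Groups overlapped for every gene, Klf9 stood lowest at high haloperidol within the neuroleptic experiment, and 1 lesion array lay at the floor for Cdkn1a.

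Fkbp5, the cochaperone gene, had 2 tested probe sets. On 1388901_at the lowest, median and highest levels were 10.87, 11.26 and 12.01 in lesion arrays and 11.02, 11.25 and 11.74 in sham arrays. After TTX they were 11.23, 11.40 and 11.59, against 11.16, 11.46 and 11.85 in TTX sham arrays. In both experiments the groups overlapped over most of their range. The differences were -0.04 ± 0.11 for the lesion and -0.03 ± 0.071 for TTX. In the neuroleptic experiment vehicle was at 11.17 ± 0.20, the 27 clozapine arrays averaged 11.20 ± 0.22 and the 27 haloperidol arrays 11.17 ± 0.21 (SD). The 95% interval of the difference from vehicle was -0.14 to 0.20 for clozapine and -0.17 to 0.17 for haloperidol. The dimmer probe set 1380611_at differed by -0.04 ± 0.12 after the lesion, 0.08 ± 0.088 after TTX, 0.10 ± 0.12 with clozapine and 0.11 ± 0.12 with haloperidol. The 2 Fkbp5 probe sets were correlated across arrays at r = 0.35, the highest value among the genes with more than 1 probe set.

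Sgk1 encodes a kinase that acts on ion channels and transporters. Its lowest, median and highest levels were 12.67, 12.97 and 13.45 in lesion arrays and 12.81, 13.10 and 13.69 in sham arrays. The difference was -0.16 ± 0.11 (limma, adjusted p = 0.760, 8 of 12 lesion arrays below the sham mean), with values of -0.016 and -0.30 within the 2 runs, and the groups overlapped. TTX and its sham averaged 13.03 ± 0.14 and 13.06 ± 0.14 (SD), a difference of -0.03 ± 0.065. At vehicle Sgk1 was at 12.94 ± 0.14, at low, medium and high clozapine at 12.84 ± 0.12, 12.83 ± 0.15 and 12.96 ± 0.14, and at low, medium and high haloperidol at 12.93 ± 0.11, 12.92 ± 0.17 and 12.82 ± 0.13. High clozapine was the highest and high haloperidol the lowest of the 7 means, and no neighbouring gap exceeded the larger SD. The high dose differed from the low dose by 0.12 ± 0.068 for clozapine and by -0.11 ± 0.068 for haloperidol (limma, unadjusted p = 0.0831 and 0.127). Neither difference was called. Whether the 2 drugs differ in this respect was not tested.

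Tsc22d3, the GILZ gene, had lowest, median and highest levels of 12.32, 12.65 and 13.09 in lesion arrays and 12.47, 12.75 and 13.12 in sham arrays, and the groups overlapped. The lesion difference was -0.12 ± 0.090 in 10 of 12 arrays (limma, adjusted p = 0.791), and the TTX difference 0.01 ± 0.10. In the neuroleptic experiment vehicle had the highest mean, 12.84 ± 0.18. Low, medium and high clozapine averaged 12.71 ± 0.23, 12.61 ± 0.23 and 12.66 ± 0.22, and low, medium and high haloperidol 12.77 ± 0.22, 12.79 ± 0.23 and 12.79 ± 0.20. The clozapine mean differed from vehicle by -0.18 ± 0.083 (limma, unadjusted p = 0.0348, adjusted p = 0.977), with 22 of 27 clozapine arrays below the vehicle mean. Within the 4 runs that difference was -0.024, -0.32, -0.0027 and 0.031, and it was far from 0 in 1 run only. Clozapine differed from haloperidol by -0.12 ± 0.059 (limma, unadjusted p = 0.0411, adjusted p = 0.306). Runs held 62.4% of the variance of Tsc22d3 in the neuroleptic arrays. Its highest run mean was 13.03, in run 4, which held 9 haloperidol and 2 clozapine arrays. The part of the runs in the difference between the drugs was not tested.

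Cdkn1a encodes p21, which p53 induces as well. Its probe set 1388674_at had lowest, median and highest levels of 5.00, 9.46 and 10.36 in lesion arrays and 8.91, 9.07 and 9.50 in sham arrays. The value of 5.00 is the floor, reached by lesion replicate 5, whose deposited intensity was 29.2, and the next lowest lesion array was at 8.73. With that array the difference was -0.04 ± 0.40, and without it 0.33 ± 0.16 (limma, unadjusted p = 0.0478, adjusted p = 0.608). So 1 array decided the sign, and neither value was called. After TTX Cdkn1a averaged 9.52 ± 0.28 (SD, n = 11), against 9.26 ± 0.36 (SD, n = 9) in sham, a difference of 0.26 ± 0.13 (unadjusted p = 0.0721, adjusted p = 0.999). Vehicle was at 9.78 ± 0.17, low, medium and high clozapine at 9.53 ± 0.44, 9.62 ± 0.33 and 9.41 ± 0.33, and low, medium and high haloperidol at 9.78 ± 0.19, 9.67 ± 0.32 and 9.64 ± 0.45. Vehicle had the highest mean, and 8 of 8 high clozapine arrays lay below it. The clozapine mean differed from vehicle by -0.26 ± 0.13 (unadjusted p = 0.0435, adjusted p = 0.977), in 22 of 27 arrays, and within the 4 runs by -0.31, -0.35, -0.13 and -0.030. High clozapine differed by -0.37 ± 0.16 (unadjusted p = 0.0235, adjusted p = 0.987), and the haloperidol mean by -0.09 ± 0.13.

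The remaining 2 probe sets, too dim to be tested, are given by their levels only. Group means of Cdkn1a 1387391_at ran from 6.54 to 7.58 with SDs of 0.46 to 1.21, and those of Klf9 1390076_at from 6.92 to 7.83 with SDs of 0.36 to 1.36. Across all arrays they were correlated with the representative probe set of their gene at 0.05 and -0.06.

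The drug comparisons against vehicle asked whether chronic treatment was followed by other levels of these genes in frontal cortex. No member was called at any dose or over the doses. Limma called 0 of 18625 probe sets (0%) for the clozapine mean, with 711 (3.82%) at an unadjusted p under 0.05. For the haloperidol mean it called 4 (0.0215%), with 1261 (6.77%) at an unadjusted p under 0.05. Among the 10 tested probe sets of members, 2 had an unadjusted p under 0.05 with clozapine, Tsc22d3 and Cdkn1a, and 1 with haloperidol, Klf9. In single dose levels the share called over all probe sets was 0%, 0.0215% and 0.00537% at low, medium and high clozapine, and 0%, 0.00537% and 0.0268% at low, medium and high haloperidol. After TTX limma called 0% of probe sets too, with 867 (4.66%) at an unadjusted p under 0.05, of which 0 were members. For lesion minus TTX effects it called 0% as well, with 1182 (6.35%) at an unadjusted p under 0.05 and 0 members among them. The clozapine and haloperidol comparisons share the 9 vehicle arrays, so their values are not independent of each other.

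Klf9 was the 1 member called, in the comparison of the drugs with each other. Its bright probe set 1370209_at was higher with clozapine than with haloperidol by 0.085 ± 0.023 on the log2 scale (95% interval 0.039 to 0.131), a ratio of 1.06 (limma, adjusted p = 0.0447). The lowest, median and highest levels were 13.94, 14.12 and 14.24 in the 27 clozapine arrays and 13.84, 14.01 and 14.12 in the 27 haloperidol arrays. The drugs overlapped, but 14 of 27 clozapine arrays lay above every haloperidol array, and 22 of 27 above the haloperidol mean. In this comparison limma called 225 of 18625 probe sets (1.21%), 62 of them higher with clozapine (0.333%), and 2823 (15.2%) had an unadjusted p under 0.05. Among the 10 tested probe sets of members 1 was called and 2 had an unadjusted p under 0.05.

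Set against vehicle, the clozapine arrays stood level and the haloperidol arrays lower. Klf9 averaged 14.10 ± 0.053 at vehicle (SD, n = 9), and 14.09 ± 0.098, 14.10 ± 0.073 and 14.11 ± 0.088 at low, medium and high clozapine. At low, medium and high haloperidol it averaged 14.04 ± 0.064, 14.02 ± 0.075 and 13.98 ± 0.029 (SD, n = 9 each). The haloperidol means thus lay in the order of dose, each below vehicle, and no gap between neighbours exceeded the larger of their SDs. Doses were spread unevenly over the runs of sample numbers. Run 4, with the lowest Klf9 mean of the neuroleptic runs (14.03), held more high than low or medium haloperidol arrays. The part of the runs in the order of these means was not tested. The haloperidol mean differed from vehicle by -0.084 ± 0.032 (limma, unadjusted p = 0.0121, adjusted p = 0.651), with 26 of 27 arrays below the vehicle mean. High haloperidol differed from vehicle by -0.12 ± 0.040 (unadjusted p = 0.00404, adjusted p = 0.412). All 9 high haloperidol arrays lay below the vehicle mean and 7 of 9 below every vehicle array. High haloperidol differed from low by -0.063 ± 0.040 (adjusted p = 0.874), so no dose trend was called. The clozapine mean differed from vehicle by 0.0014 ± 0.032. After the lesion Klf9 differed from sham by -0.0013 ± 0.057, and after TTX by -0.028 ± 0.058, both with arrays of the groups intermixed.

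**Figure D3:**
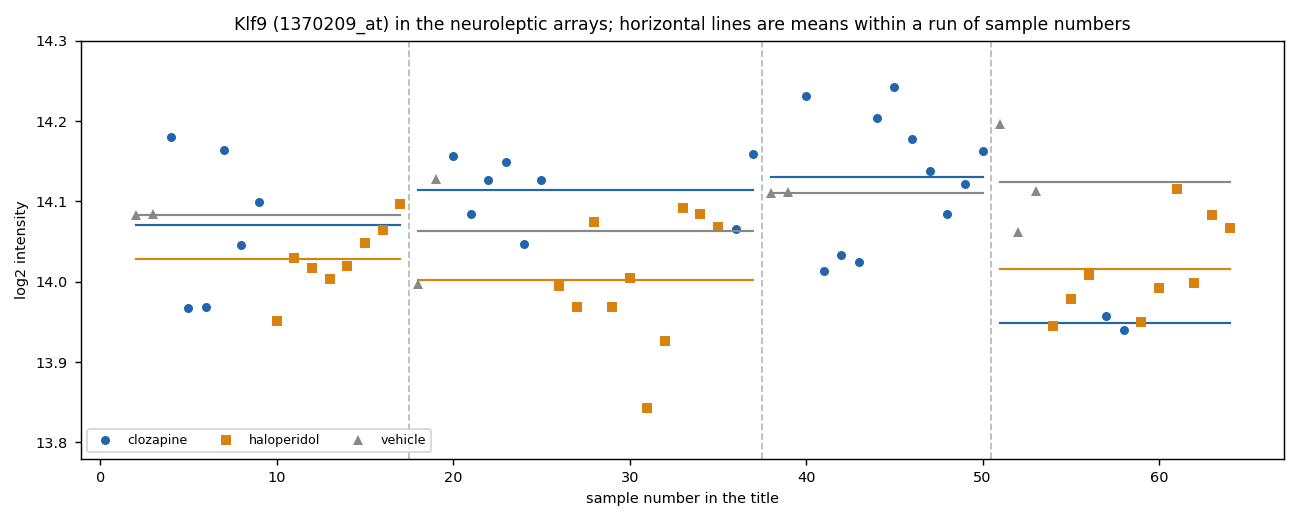
Log2 intensity of Klf9 1370209_at in clozapine (circles), haloperidol (squares) and vehicle (triangles) arrays against the sample number in the title; dashed lines separate 4 runs of numbers and horizontal lines are means within a run. Clozapine means lay above haloperidol means in runs 1 and 2 and below in run 4, and run 3 held no haloperidol array.

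The drugs were spread unevenly over the runs of sample numbers. The 4 runs held 6, 8, 11 and 2 clozapine arrays, 8, 10, 0 and 9 haloperidol arrays and 2, 2, 2 and 3 vehicle arrays. Within runs clozapine minus haloperidol was 0.042 in run 1, 0.11 in run 2 and -0.066 in run 4, where there were only 2 clozapine arrays. Run 3, which held the most clozapine arrays, had the highest Klf9 mean, 14.13, with 14.05, 14.05 and 14.03 in runs 1, 2 and 4. With the run as a term in the fit the difference was 0.065 and the call was lost (limma, adjusted p = 0.804), and 0 of 18625 probe sets were called. The call was also lost with no filter on low signal (adjusted p = 0.0771). With the mean of all Klf9 probe sets the difference was -0.041 (adjusted p = 0.861). That mean includes 1390076_at, which was too dim to be tested. It averaged 7.27 ± 0.83 with clozapine and 7.45 ± 0.83 with haloperidol (SD). Within runs 1, 2 and 4, which held haloperidol arrays, haloperidol minus vehicle was -0.055, -0.060 and -0.11.

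The call rested on a narrow margin. When 1 of the 63 neuroleptic arrays was left out at a time, the difference stayed between 0.078 and 0.092, the adjusted p ran from 0.0106 to 0.0741, and the call was lost in 35 of 63 cases. It was lost for 6 of 10, 7 of 9 and 7 of 8 low, medium and high clozapine arrays, for 6, 4 and 5 of 9 low, medium and high haloperidol arrays and for 0 of 9 vehicle arrays. The other tested Klf9 probe set, 1387882_at, differed between the drugs by -0.034 ± 0.063, and its correlation with the bright one across all arrays was 0.05. The interval of that difference, -0.16 to 0.09, includes both 0 and the value of the bright probe set.

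Other measures are given beside the Klf9 difference. Of 8 endothelial and mural markers, all measured, 6 were higher and 2 lower with clozapine than with haloperidol, with a median difference of 0.11. In this comparison 56.1% of all probe sets were higher, and none of the 8 markers was called (limma, smallest adjusted p = 0.203, Vwf). Their summed intensity ran from 23167 to 31253 (median 27072) in clozapine arrays and from 21206 to 28992 (median 25756) in haloperidol arrays, and Klf9 was correlated with the list's mean at r = 0.35 across all arrays, beside 0.38 with the mean of the glucocorticoid-induced genes. The 2 measured markers of a blood list of 4 were both higher with clozapine, with a summed intensity of 7878 to 96581 (median 52612) in clozapine arrays and 26061 to 65924 (median 43268) in haloperidol arrays. Against vehicle, Hbb was at -0.32, 0.38 and 0.72 and Alas2 at -0.34, 0.30 and 1.03 at low, medium and high clozapine (none called), while Klf9 averaged 14.09, 14.10 and 14.11 at these doses. The log2 ratio of the 3′ to the 5′ β-actin probe set, a measure of RNA integrity and labelling, was 0.94 ± 0.12 with clozapine, 1.04 ± 0.15 with haloperidol and 0.94 ± 0.11 at vehicle (SD). Among the haloperidol doses it was highest at the high dose, at 1.12 ± 0.14 (SD), where Klf9 was lowest. Across all arrays Klf9 was correlated with this ratio at 0.13, and in the neuroleptic arrays at -0.12. Its correlation with the mean of the blood markers was 0.14. Array intensities carry no true 0, so no marker could be called absent. The part of these measures in the Klf9 difference was not tested.

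The receptor's partners and other target genes gave the wider pathway. In the comparison of clozapine with haloperidol, 9 of 10 tested receptor chaperone genes were higher and 1 lower, where 56.1% of all probe sets were higher, and 1 of the 10 was called, against 1.21% of all probe sets. That gene was Stip1, which encodes the organiser protein linking Hsp70 and Hsp90, at 0.15 ± 0.040 (limma, adjusted p = 0.0444). The call was lost with the run as a term (adjusted p = 0.804), with no filter on low signal (adjusted p = 0.0803) and when any of 30 of the 63 arrays was left out (adjusted p from 0.0201 to 0.0782). In the other 4 main comparisons 0 of 10 chaperone genes were called by limma, with 0 at an unadjusted p under 0.05, and 8, 5, 7 and 3 of 10 stood higher for the lesion, TTX, clozapine and haloperidol.

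Of 27 further genes that glucocorticoids are known to induce, 26 were measured and 21 or 22 tested, and none was called in these 5 comparisons. After the lesion 8 stood higher and 14 lower, among them the clock gene Per1 at -0.36 ± 0.15 and the lipase inhibitor Angptl4 at -0.22 ± 0.11 (limma, adjusted p = 0.602 and 0.638). After TTX 16 stood higher and 5 lower, with the Ras-related Rasd1 at 0.21 ± 0.096 and the phosphatase Dusp1 at 0.21 ± 0.10 (adjusted p = 0.999 for both). With clozapine 11 stood higher and 10 lower, with haloperidol 7 and 14, and between the drugs 14 and 7. Sult1a1, a sulfotransferase, was at -0.18 ± 0.082 with clozapine and -0.20 ± 0.082 with haloperidol (adjusted p = 0.977 and 0.651). At an unadjusted p under 0.05 there were 2, 2, 1, 1 and 2 of these genes in the lesion, TTX, clozapine, haloperidol and drug comparisons.

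Coregulators of the receptor, 9 tested of a list of 11, held 1 higher and 8 lower genes after the lesion, where 49.5% of all probe sets stood higher. None of these 9 had an unadjusted p under 0.05 after the lesion (limma). In the other main comparisons their directions were more evenly divided, and none was called in any main comparison. Ncor1, a corepressor, was at -0.12 ± 0.048 with haloperidol (limma, unadjusted p = 0.0164, adjusted p = 0.651) and at -0.098 ± 0.048 with clozapine (unadjusted p = 0.0480, adjusted p = 0.977), and the drugs differed by 0.02 ± 0.034. Among 4 tested genes of steroid handling and stress hormones, of a list of 12, none was called. Crhbp, which binds and buffers corticotropin-releasing hormone, was at 0.28 ± 0.10 after the lesion (adjusted p = 0.588), at -0.28 ± 0.072 with haloperidol (unadjusted p = 0.000231, adjusted p = 0.245) and at 0.16 ± 0.051 between the drugs (adjusted p = 0.0959). Crh, the hormone's own gene, was at 0.34 ± 0.18 after the lesion (adjusted p = 0.673). Of 7 tested p53 target genes, listed because p53 induces Cdkn1a, none was called, and Gadd45a, a stress-induced growth arrest gene, was at 0.37 ± 0.12 after the lesion and 0.18 ± 0.061 between the drugs (adjusted p = 0.550 and 0.115). At an unadjusted p under 0.05, in the same order of 5 comparisons, there were 0, 0, 1, 1 and 1 coregulators, 1, 0, 0, 1 and 2 steroid handling and stress hormone genes, and 1, 0, 2, 0 and 2 p53 targets.

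The 7 genes were then compared with each other across arrays, after the mean of each group had been removed. This gave 21 pairs, of which 9 passed an adjusted permutation p of 0.05. The strongest was Nr3c1 with Tsc22d3, at r = 0.83 and rho = 0.84 over all arrays (two-sided p from permutation within experiments = 1e-05, the smallest that 100000 permutations can give; adjusted p = 0.000105). Without the 2 arrays farthest from the median of Nr3c1 it was 0.83. By experiment it was 0.78 (lesion), 0.83 (TTX) and 0.86 (neuroleptic). Arrays with a high value of the brighter Nr3c1 probe set also had a high value of Tsc22d3 in each experiment. Neither gene was called between groups. The dimmer Nr3c1 probe set was not used in these correlations, and it was correlated with the brighter at r = -0.19. Permutation treats arrays as exchangeable, which the runs make uncertain, so values within runs follow.

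**Figure D4:**
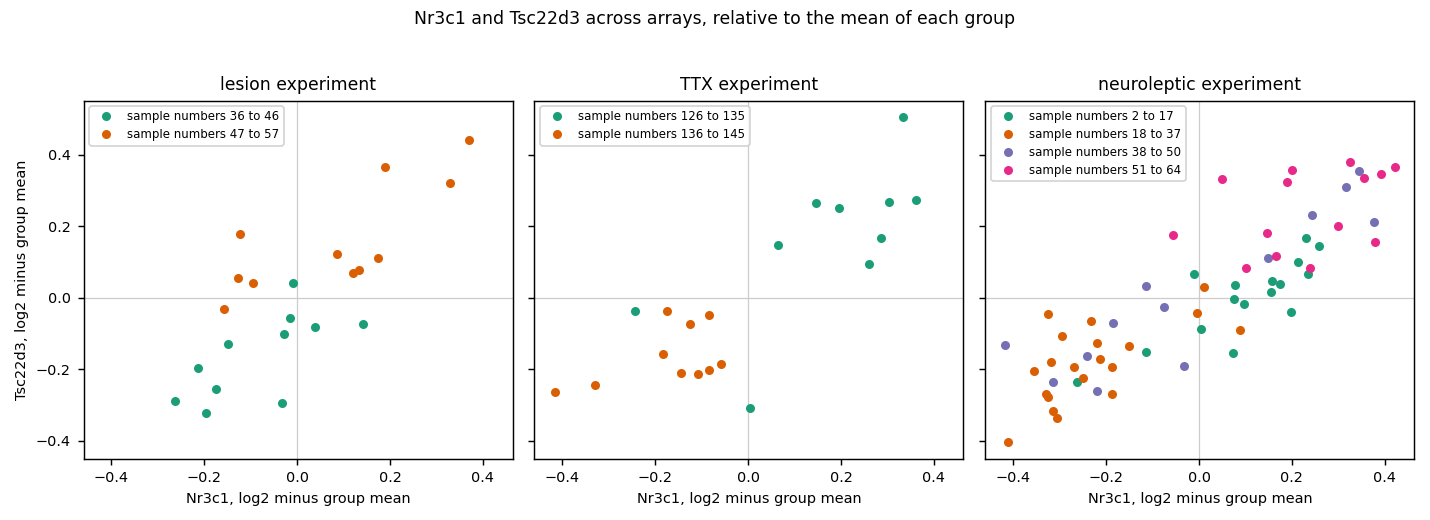
Tsc22d3 against Nr3c1, both as log2 intensity minus the group mean, on each array of the 3 experiments, coloured by run of sample numbers. The points rise together in each panel (r = 0.78, 0.83 and 0.86), and the runs occupy different parts of the line.

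The runs of sample numbers held much of this covariation. In the lesion, TTX and neuroleptic arrays, runs held 19.4%, 58.5% and 59.6% of the variance of Nr3c1 and 56.0%, 51.9% and 62.4% of that of Tsc22d3. In the neuroleptic experiment both genes were lowest in run 2, at 12.26 and 12.56, and highest in run 4, at 12.78 and 13.03. With the run means removed as well, the correlation was 0.69, lower than with group means alone removed. On the values as deposited it was 0.82.

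The pair also followed the main axis of variation over all probe sets. The first principal component held 16.7%, 22.9% and 23.8% of the variance in the lesion, TTX and neuroleptic arrays, and runs held 37.4%, 62.2% and 60.6% of that component. With its sign set by the β-actin 3′ to 5′ ratio, it was correlated with Nr3c1 at 0.86 and with Tsc22d3 at 0.88, sizes reached by 0.269% and 0.140% of probe sets. The β-actin ratio itself was correlated with Nr3c1 at 0.50 and with Tsc22d3 at 0.46, sizes reached by 7.05% and 10.4% of probe sets. The 3′ to 5′ ratio of GAPDH went the other way, at -0.41 and -0.31, and that of hexokinase was at 0.09 and 0.16. On these probe sets both genes thus stood among those closest to the component, while the dimmer Nr3c1 probe set was correlated with it at -0.27. Nr3c1 and Tsc22d3 were correlated at 0.78 with the β-actin ratio removed, at 0.81 with the GAPDH ratio removed and at 0.31 with the component removed. Of 18615 other probe sets, 160 (0.860%) were correlated with Nr3c1 at least as highly as Tsc22d3 was, and 10 (0.0537%) with Tsc22d3 at least as highly as Nr3c1 was. What the component stands for was not tested.

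**Figure D5:**
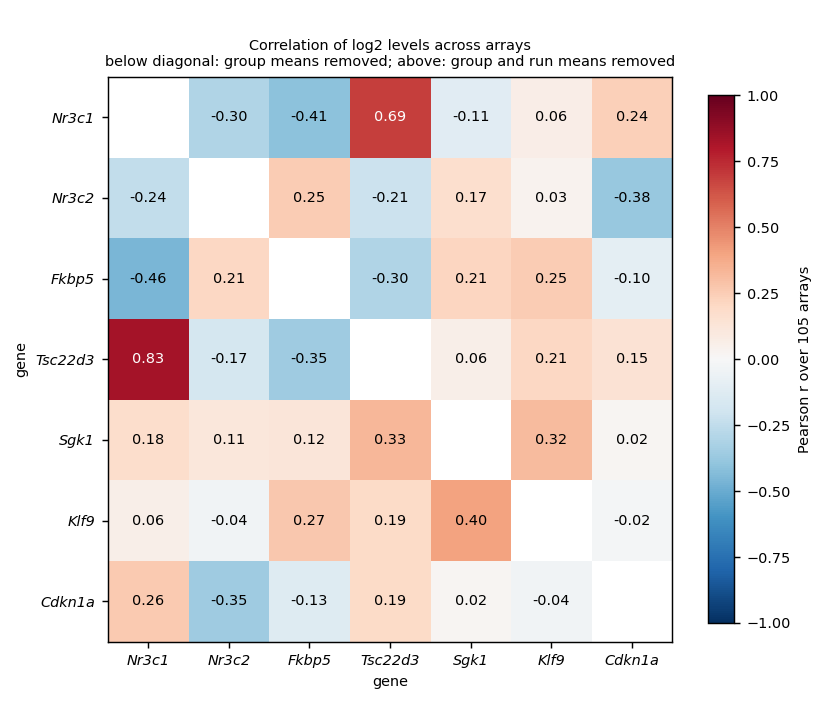
Pearson correlation between the 7 genes over all arrays, below the diagonal with group means removed and above it with group and run means removed. Nr3c1 with Tsc22d3 is the strongest pair in both (0.83 and 0.69), and Fkbp5 runs against both of them.

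Fkbp5 ran the other way from the brighter probe set of the receptor gene. Its correlation with Nr3c1 was -0.46 (rho = -0.48, permutation p = 1e-05, adjusted p = 0.000105) and with Tsc22d3 -0.35 (rho = -0.37, adjusted p = 0.000714). Without the 2 farthest arrays these were -0.47 and -0.34, and with run means removed -0.41 and -0.30. In the lesion, TTX and neuroleptic arrays Fkbp5 and Nr3c1 were at -0.22, -0.34 and -0.58, and Fkbp5 and Tsc22d3 at -0.01, -0.50 and -0.47. With the principal component removed Fkbp5 and Tsc22d3 were correlated at 0.16, the opposite sign. Fkbp5 was itself correlated with that component at -0.48, where Nr3c1 was at 0.86 and Tsc22d3 at 0.88. How much of the Fkbp5 and Nr3c1 value is shared with the component is not given here. Klf9 and Sgk1 were correlated at 0.40 (rho = 0.32, adjusted p = 0.000714), at 0.64, 0.49 and 0.10 in the lesion, TTX and neuroleptic arrays. Cdkn1a and Nr3c2 were at -0.35 (rho = -0.34, adjusted p = 0.00028), Sgk1 and Tsc22d3 at 0.33 (rho = 0.34, adjusted p = 0.00231) and Cdkn1a and Nr3c1 at 0.26 (rho = 0.35, adjusted p = 0.00291). Without the 2 farthest arrays Klf9 with Sgk1 was at 0.35 and these 3 pairs at -0.30, 0.29 and 0.38. With run means removed Sgk1 and Tsc22d3 stood at 0.06. The last of the 9 pairs were Fkbp5 with Klf9 at 0.27 (adjusted p = 0.0174) and Nr3c1 with Nr3c2 at -0.24 (rho = -0.26, adjusted p = 0.0308). Fkbp5 with Klf9 was at 0.70 (lesion), 0.11 (TTX) and 0.05 (neuroleptic). It fell short by rank (rho = 0.21, adjusted p = 0.0530) and was at 0.17 without the 2 farthest arrays, so it rested on few arrays. Without the 2 farthest arrays Nr3c1 with Nr3c2 was at -0.23, and by experiment at -0.26 (lesion), 0.11 (TTX) and -0.35 (neuroleptic), so the sign turned in the TTX arrays. Cdkn1a with Nr3c2 was at -0.53, -0.03 and -0.35 in the same order. With run means removed 9 pairs passed, 8 of them the same as before, and with the component removed 6 passed, 5 of them the same.

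Across 10128 genes represented by a tested probe set in all experiments, the genes most like each member were named by Pearson r over all arrays with group means removed. Nr3c1 was closest to Acyp2, Cacybp and Ptpn4 (0.89 each), and Tsc22d3 to Pcdh9 (0.86), Rtn4 (0.86) and Gpcpd1 (0.85). The other members had looser neighbours. Sgk1 was closest to Eif4a3 (0.58), Nfyc (0.57) and Cited2 (0.55), and Fkbp5 to Pik3ca (0.55), Tprg1l (0.54) and Epn2 (0.54). Klf9 was closest to Plcb4 (0.53), Cables1 (0.52) and Slc24a2 (0.50), and Cdkn1a to Dhx9 (0.50), Zfhx3 (0.50) and Tigd3 (0.46). Nr3c2 had the loosest neighbours, Sf3a3, Exosc7 and Orc5 (0.44 each). All these correlations come from the same arrays, which fall into runs, and the values are descriptions of these arrays.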

How the data were processed

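Frontal cortex RNA in 11 groups of samples had been hybridised to Affymetrix arrays. The deposited table gives 1 linear intensity per probe set and array. The sources used here do not state the software, background correction or probe summarisation of the authors. Scaling shows in the deposited intensities, whose mean after trimming 2% at each end was 2500.62 to 2500.77 on every array, with medians of 775.1 to 962.3. No 2 arrays were identical (0 pairs, highest correlation 0.968).

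Here, arrays were quantile-normalised experiment by experiment, values under a floor of 32 were set to it, and log2 was taken. After 57 control probe sets were dropped, the brightest 60%, 18625 of 31042, were fitted with limma 3.58.1 (lmFit, eBayes) in R 4.3.3, with group means as the only terms and Benjamini-Hochberg adjustment. The 7 neuroleptic groups shared 1 fit, the lesion and TTX effects were compared in a joint fit, and fits were tested on simulated data. Correlations used 100000 permutations (SciPy 1.17.1, Python 3.11.15), and figures matplotlib 3.10.9.

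Symbols came from the platform's annotation, and promoters from RefSeq's GRCr8. A gene was represented by its brightest probe set. Every member probe set was described, genes of a pathway list were named only from those called or, without a call, the 2 with the smallest p in a comparison, and the most alike genes were named by correlation. Samples were grouped by their descriptions. Replicate numbers follow accession order and pair nothing. Members, lists, runs and tests were chosen with earlier results of these data known. The number of arrays limits the precision, and the table has no detection calls.

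Alternatives were the deposited scaling, a floor of 64, no filter or the brightest 40%, array weights, the run of sample numbers as a term, values within runs, the mean of a gene's probe sets and leaving out each array. Removing the first principal component or a 3′ to 5′ control ratio from the correlations was chosen after seeing the data.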

Additional observations from a re-analysis of the deposited data

Results flagged for a closer look

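In 4 of 90 groups of 4 to 10 arrays examined (4.44%, where chance gives about 5%), 1 array stood apart by Dixon's criterion, each time as the lowest. Cdkn1a 1388674_at was at 8.40 in low clozapine replicate 5, with the nearest array at 9.32 and the others at 9.65 ± 0.21 (SD). Klf9 1370209_at was at 13.84 in medium haloperidol replicate 5, with the nearest at 14.00 and the others at 14.04 ± 0.035. Klf9 1387882_at was at 10.44 in high haloperidol replicate 8, with the nearest at 10.81. Nr3c1 1368222_at was at 8.31 in medium clozapine replicate 2, with the nearest at 9.31. The array of Cdkn1a at the floor lies in the lesion group of 12, too large for this criterion. No member had a called difference between the lesion and TTX effects (0 of 10 by limma, with 0 at an unadjusted p under 0.05).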

How the results depend on the processing

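No paired analysis was possible because replicate numbers follow accession order and pair nothing. The number of members called was the same under every alternative run in 13 of the 14 comparisons. Clozapine minus haloperidol had 1 and lost it (0) with no filter, with the run as a term and with the mean of a gene's probe sets, and had 0 to 1 with single arrays left out. Over all probe sets that comparison had 225 calls, and 292 on deposited values, 225 with a floor of 64, 49 with no filter, 214 in the brightest 40%, 531 with array weights, 0 with the run as a term, 0 with the mean of a gene's probe sets and 56 to 663 with single arrays left out. Direction was the same in 136 of 140 member tests on deposited values, 139 with a floor of 64, 140 with no filter, 101 of 101 in the brightest 40%, 128 with array weights and 118 with the run as a term.

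Among the tests that changed sign, the reported interval included 0 except for Klf9 with haloperidol, with high haloperidol and between the drugs. With the mean of a gene's probe sets Klf9 stood at -0.041 for clozapine minus haloperidol, 0.11 for haloperidol, 0.056 for high haloperidol and -0.059 for the lesion minus the TTX effect, Fkbp5 at 0.027 for TTX and 0.055 for haloperidol, and Nr3c1 at -0.055 for haloperidol. With array weights Klf9 stood at 0.016 for the lesion, Nr3c1 at 0.0067 and Sgk1 at 0.0046 for TTX, Nr3c2 at -0.0084 for clozapine, Nr3c1 at -0.027 for haloperidol and Fkbp5 at 0.031 for the lesion minus the TTX effect. With the run as a term clozapine gave Fkbp5 -0.0061, Klf9 1370209_at -0.0088, Nr3c1 0.027 and Nr3c2 -0.0085, and clozapine minus haloperidol gave Sgk1 0.022. Within the fourth run Klf9 was at -0.066 for clozapine minus haloperidol. On deposited values Fkbp5 was at 0.0045 for haloperidol, and with a floor of 64 Cdkn1a was at 0.040 for the lesion. With the first principal component removed, Fkbp5 and Tsc22d3 were correlated at 0.16, and 6 of 21 pairs passed, against 9 in the report. With a 3′ to 5′ ratio of β-actin, GAPDH or hexokinase removed, 8, 8 and 9 pairs passed. The cause was not tested.

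With single arrays left out the ranges that crossed 0 were, for the lesion, -0.16 to 0.33 (Cdkn1a), -0.11 to 0.0045 (Fkbp5) and -0.028 to 0.027 (Klf9), and for TTX, -0.062 to 0.024 (Fkbp5) and -0.028 to 0.074 (Tsc22d3). For clozapine they were -0.020 to 0.067 (Fkbp5), -0.011 to 0.014 (Klf9) and -0.021 to 0.022 (Nr3c2), and for haloperidol -0.053 to 0.034 (Fkbp5), -0.038 to 0.061 (Nr3c1) and -0.015 to 0.027 (Nr3c2). For clozapine minus haloperidol the range was -0.015 to 0.0074 (Nr3c2), and for the lesion minus the TTX effect -0.41 to 0.072 (Cdkn1a), -0.086 to 0.030 (Fkbp5) and -0.040 to 0.021 (Nr3c2). Without 1 array, Klf9 for clozapine minus haloperidol ran from 0.078 to 0.092.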
